A study of Homo sapiens with 6 samples.

Results

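The 10 genes described here encode cell-surface adhesion receptors: the integrin alpha subunits ITGA2, ITGA3, ITGA5, ITGA6 and ITGAV, the integrin beta subunits ITGB1, ITGB3, ITGB4 and ITGB5, and CD44. They were chosen by name from the 20163 protein-coding genes of the GENCODE annotation on GRCh37 (hg19). Open chromatin was followed from 50 kb upstream of each gene to its end. Of the 9 genes with a promoter signal, none had values that did not overlap between SAP30-KO1 and parental cells. Over all protein-coding genes with such a signal the share was 10.6%. With only 9 genes, this does not show that they changed less than others. ITGAV had the most accessible promoter of the 10 genes in both groups. Away from the promoters, 5 of 44 sites had values that did not overlap between the groups, close to the share seen across the genome.

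Chromatin accessibility had been measured by ATAC-seq, in which a transposase inserts sequencing adapters into open DNA, in MDA-MB-231, a line of human triple-negative breast cancer cells. Parental cells and SAP30-KO1 cells had 3 libraries each, all from cultures in DMEM with fetal bovine serum. SAP30-KO1 is a CRISPR/Cas9 knockout of SAP30, a subunit of the SIN3 histone deacetylase complex, and the study describes its knockout line as several knockout cells mixed together. The labels do not say whether libraries of a group came from separate cultures, so p-values measure only the spread between these libraries.

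Integrins are heterodimers of an alpha and a beta subunit that bind extracellular matrix outside the cell and, through adaptors such as talin and kindlin, actin or keratin filaments inside it. The alpha subunit largely sets the ligand, and the beta subunit carries most contacts to the cytoskeleton. CD44 is the main receptor for hyaluronan, and is used as a marker of mesenchymal-like breast cancer cells.

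Each library was deposited as a list of peak summits, the positions of highest signal, each scored by the −log10 of its peak's q value. The lists held 29762 to 40650 summits and no read counts, so the depth behind a summit is unknown and no counting interval can be given. Pairs of lists had 0.417% to 0.598% of positions in common, so no list repeated another. Accessibility is given as the percentile rank of the score within its own list, from 0 to 100, with 0 where a library had no summit. Of the mesenchymal markers looked for, VIM, CAV1 and MSN had a promoter summit in 6 of 6 libraries and AXL in 3. Of the luminal and epithelial markers, CDH1 had none, ESR1 and PGR had one in 1 library each, and EPCAM and GATA3 in 5. The blood markers PTPRC and CD3E had none. SAP30 itself had a promoter summit in all 6 libraries, with ranks between 49.5 and 89.5, which does not check a knockout made by a small sequence change.

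First, promoters were compared, to ask whether loss of SAP30 went with a change in accessibility where transcription of these genes starts. The promoter of a gene was taken as the sequence within 1 kb of any annotated start site, and its rank as that of its strongest summit. Of the 10 genes, 9 had a promoter summit in at least 1 library and 6 had one in all 6 libraries. No gene had ranks that did not overlap between the groups (0 of 9). Of the 12564 protein-coding genes with a promoter summit, 10.6% did, 6.01% with higher and 4.58% with lower ranks in SAP30-KO1. With 9 genes, a count of 0 does not show less change than over all genes. The difference, SAP30-KO1 minus Parental, was positive for 6 genes and negative for 3, with a median of 3.82 percentile points against 0.679 over all genes with a promoter summit. With 3 libraries against 3, the exact permutation test (two-sided, 20 assignments) cannot give a p under 0.1. Adjusted over all promoters, the lowest p of the 9 genes was 1 in this exact test, and with limma, an alternative fitted across all promoters, the lowest adjusted p was 0.791 and 0 of 9 had an unadjusted p under 0.05, against 6.77% of all promoters.

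ITGAV (chromosome 2, 187454737 to 187545628, plus strand) encodes the alpha subunit of the vitronectin-binding and other RGD-binding integrins. Its promoter ranked at 98.3, 91.2 and 96.1 in the Parental libraries and at 97.8, 99.0 and 97.6 in the SAP30-KO1 libraries. Every library thus held this promoter among its highest-scoring summits, and the groups overlapped (difference 2.92, exact p = 0.3). Without Parental replicate 1, its 3 SAP30-KO1 ranks lay above both remaining Parental ranks. In that setting the groups did not overlap, in either direction, at 20.2% of all promoters with a summit. The ITGAV summits lay between positions -231 and 112 relative to the canonical start site at base 187454783.

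ITGA2 (chromosome 5, 52285170 to 52390609, plus strand) encodes the alpha subunit that binds collagen with ITGB1. Its promoter ranked at 41.5, 52.4 and 53.0 in Parental and at 30.1, 49.7 and 63.5 in SAP30-KO1 libraries. The lowest and the highest rank both belonged to SAP30-KO1, and the difference was -1.20 (exact p = 0.8). ITGAV and ITGA2 were the only members of the group with a summit at the canonical start site in all 6 libraries. To show what these promoters look like, the exon-free sequence just upstream of the annotated transcripts is printed in GRCh37. Capitals mark GGGCGG or its complement CCGCCC, the letters bound by SP and KLF factors. The stretches are chr2:187454583-187454736 and chr5:52284982-52285169, both on the plus strand.
ITGAV: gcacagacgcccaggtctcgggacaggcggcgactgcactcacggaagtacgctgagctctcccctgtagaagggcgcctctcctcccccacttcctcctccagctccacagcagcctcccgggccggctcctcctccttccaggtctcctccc
ITGA2: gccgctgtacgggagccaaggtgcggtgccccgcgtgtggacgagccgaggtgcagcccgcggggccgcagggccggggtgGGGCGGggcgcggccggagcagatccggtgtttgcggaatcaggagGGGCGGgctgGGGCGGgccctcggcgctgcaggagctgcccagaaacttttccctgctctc

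The printed ITGAV stretch held none of these letters and the ITGA2 stretch held 3 copies. Within 250 bases of the canonical start site on either side, ITGAV held 2 copies and ITGA2 held 4. Among all canonical start sites, 69.6% had GGGCGG in that window, 86.1% of those with a summit in all 6 libraries and 49.0% of those with none. In the same window of 501 bases, the ratio of observed to expected CpG was 0.748 at ITGAV and 0.713 at ITGA2, against a median of 0.778 over 19881 canonical start sites.

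The laminin-binding alpha subunits ITGA3 (chromosome 17, 48133332 to 48167845, plus strand) and ITGA6 (chromosome 2, 173292082 to 173371187, plus strand) had their summits in different places. ITGA3 ranked at 83.9, 36.0 and 71.5 in Parental and at 80.9, 75.5 and 79.6 in SAP30-KO1 libraries. Parental replicate 1 was above all SAP30-KO1 libraries and the other Parental libraries below them (difference 14.9, exact p = 0.5). The difference rested on Parental replicate 2, without which it was 0.998, and it was 24.9 without Parental replicate 1. These summits lay 6.5 kb downstream of the canonical start site, at positions from -993 to -877 relative to the nearest start site of another annotated transcript, and the canonical start site itself had no summit in any library. They were thus just inside the 1 kb taken as a promoter, and with 500 bp on each side ITGA3 had no promoter summit. ITGA6 ranked at 17.4, 0 and 0 in Parental and at 35.3, 10.7 and 41.3 in SAP30-KO1 libraries. All 3 SAP30-KO1 libraries had a summit against 1 Parental library, yet the groups overlapped, since Parental replicate 1 lay above SAP30-KO1 replicate 2 (difference 23.3, exact p = 0.2). ITGA5 (chromosome 12, 54789045 to 54813050, minus strand), the alpha subunit of the fibronectin receptor, had a promoter summit only in Parental replicate 3, at a rank of 19.0 (difference -6.33, exact p = 1).

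ITGB1 (chromosome 10, 33176201 to 33294720, minus strand), the beta subunit shared by most of the matrix-binding alpha subunits, had summits at distant start sites. Its promoter rank was 41.5, 44.3 and 38.1 in Parental and 26.1, 46.0 and 63.3 in SAP30-KO1 libraries, and the Parental ranks lay inside the SAP30-KO1 range (difference 3.82, exact p = 0.7). At the canonical start site alone, chromosome 10, base 33247158, minus strand, the ranks were 41.5, 13.5 and 0 in Parental and 21.5, 10.97 and 27.9 in SAP30-KO1 libraries. The other summits lay 47.4 kb further upstream, at the 5′ end of the annotated gene, with ranks of 0, 44.3 and 38.1 in Parental and 26.1, 46.0 and 63.3 in SAP30-KO1 libraries. Both start sites were thus open in 5 of 6 libraries, but not in the same 5.

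ITGB5 (chromosome 3, 124480795 to 124620265, minus strand), a partner of ITGAV, ranked at 58.9, 63.3 and 55.4 in Parental and at 56.9, 62.3 and 83.1 in SAP30-KO1 libraries. SAP30-KO1 replicate 3 stood above the rest, and the others overlapped (difference 8.21, exact p = 0.5). Without SAP30-KO1 replicate 3 the difference was 0.379, and without SAP30-KO1 replicate 1 it was 13.5. These ranks came from a start site inside the gene, 8.4 kb downstream of the canonical one. At the canonical start site the ranks were 0, 0 and 38.4 in Parental and 26.4, 53.8 and 0 in SAP30-KO1 libraries. ITGB3 (chromosome 17, 45331193 to 45391109, plus strand), which pairs with ITGAV and with the platelet subunit ITGA2B, had a promoter summit only in Parental replicate 1, at a rank of 12.4 (difference -4.14, exact p = 1). ITGB4 (chromosome 17, 73717408 to 73753899, plus strand), which pairs with ITGA6 in hemidesmosomes, the junctions that tie keratin filaments to laminin, had none in any library.

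CD44 (chromosome 11, 35160429 to 35253949, plus strand) ranked at 61.9, 30.9 and 37.6 in Parental and at 39.5, 69.8 and 72.2 in SAP30-KO1 libraries. SAP30-KO1 replicates 2 and 3 were above every Parental library, while SAP30-KO1 replicate 1 was below Parental replicate 1 (difference 17.0, exact p = 0.2). At the canonical start site, chromosome 11, base 35160718, plus strand, the ranks were 0, 23.8 and 12.4 in Parental and 39.5, 63.4 and 4.49 in SAP30-KO1 libraries. A start site 75.8 kb further downstream, where the antisense gene CD44-AS1 is also annotated, ranked at 61.9, 30.9 and 37.6 in Parental and at 29.1, 69.8 and 72.2 in SAP30-KO1 libraries. The larger of both values thus came from the downstream start site in every library except SAP30-KO1 replicate 1, and neither site separated the groups (exact p = 0.3 and 0.5).

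**Figure D1:**
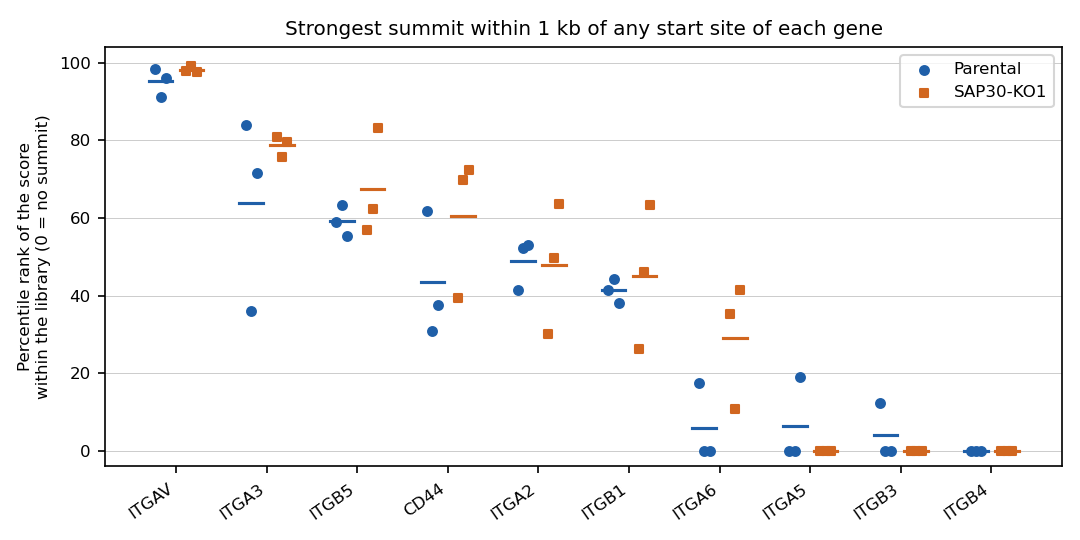
Promoter accessibility of the 10 genes, ordered by their mean over 6 libraries. The y axis is the percentile rank of the strongest promoter summit within its library, points are single libraries and horizontal bars are group means of 3 libraries; ITGAV lies between 91.2 and 99.0, ITGB4 is at 0 throughout, and the groups overlap for every gene.

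By the mean promoter rank over 6 libraries, the order was ITGAV (96.7 ± 2.85, SD), ITGA3 (71.2 ± 17.8), ITGB5 (63.3 ± 10.2), CD44 (52.0 ± 18.1), ITGA2 (48.4 ± 11.4), ITGB1 (43.2 ± 12.1), ITGA6 (17.4 ± 17.6), ITGA5 (3.17 ± 7.76), ITGB3 (2.07 ± 5.07) and ITGB4 (0). ITGAV was the one gene whose ranks did not overlap those of the next gene in this order. The neighbors from ITGA3 down to ITGB4 overlapped. When canonical start sites alone were used, an alternative added after the data had been seen, 8 of the 10 genes had a summit in at least 1 library, 2 had one in all 6, and none had ranks apart between the groups, where 10.5% of 11403 genes did.

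**Figure D2:**
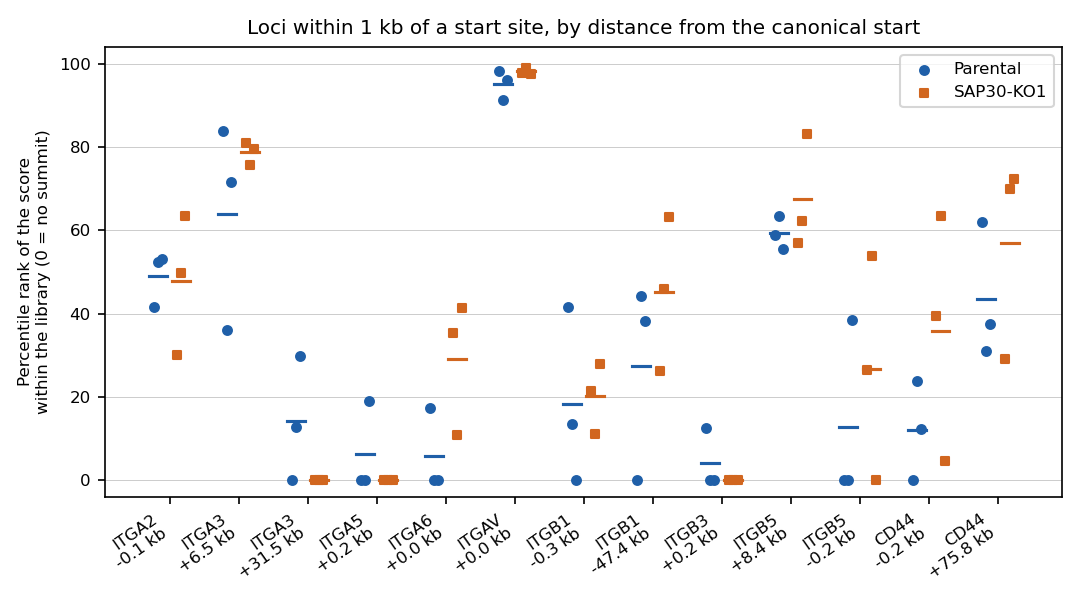
Every locus within 1 kb of a start site of the 10 genes, labeled by its distance from the canonical start site of the gene, with negative values upstream. The y axis is the percentile rank in each library (0 where there was no summit), points are single libraries and horizontal bars are group means; the loci of ITGA3 at 6.5 kb, ITGB5 at 8.4 kb and CD44 at 75.8 kb lie higher in the mean than any other such locus of the same gene.

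Next, sites away from the promoters were examined. Summits of the 6 libraries were extended by 250 bp on each side and merged, which gave 56419 loci in the genome and 65 in the regions of the 10 genes. Of these 65, 13 lay at a promoter of the gene itself, 24 in introns, 2 in exons, 18 upstream and 8 at the start site of another gene. The 44 intronic, exonic and upstream loci are called distal sites here. A summit was present in all 6 libraries at 19 of them (43.2%, against 22.9% of 39514 distal loci in the genome) and in a single library at 11 (25.0% against 33.1%). Their median rank was 31.9 against 13.6 over all distal loci. For the 24 intronic sites, 10 (41.7%) had a summit in all 6 libraries, against 23.4% of 22918 intronic loci.

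The groups had distal ranks that did not overlap at 5 of the 44 sites (11.4%), where 10.1% of all distal loci did. In this count 3 sites were higher in SAP30-KO1 (background 6.01%) and 2 were lower (background 4.14%). Among introns alone 1 of 24 sites was higher (background 5.94%) and 1 was lower (background 4.28%), together beside a background of 10.2%. The difference was positive at 21 distal sites and negative at 23, with a median of -0.0970 against 0.196 over all distal loci. None of the 33 distal sites with a summit in at least 2 libraries passed limma fitted across 40338 loci (lowest adjusted p = 0.351). Of all 40338 loci, 93 passed. Among the 33, 3 had an unadjusted p under 0.05, against 9.95% of the loci tested. The 5 sites are described in turn, each with the smallest p that the exact test allows, 0.1.

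**Figure D3:**
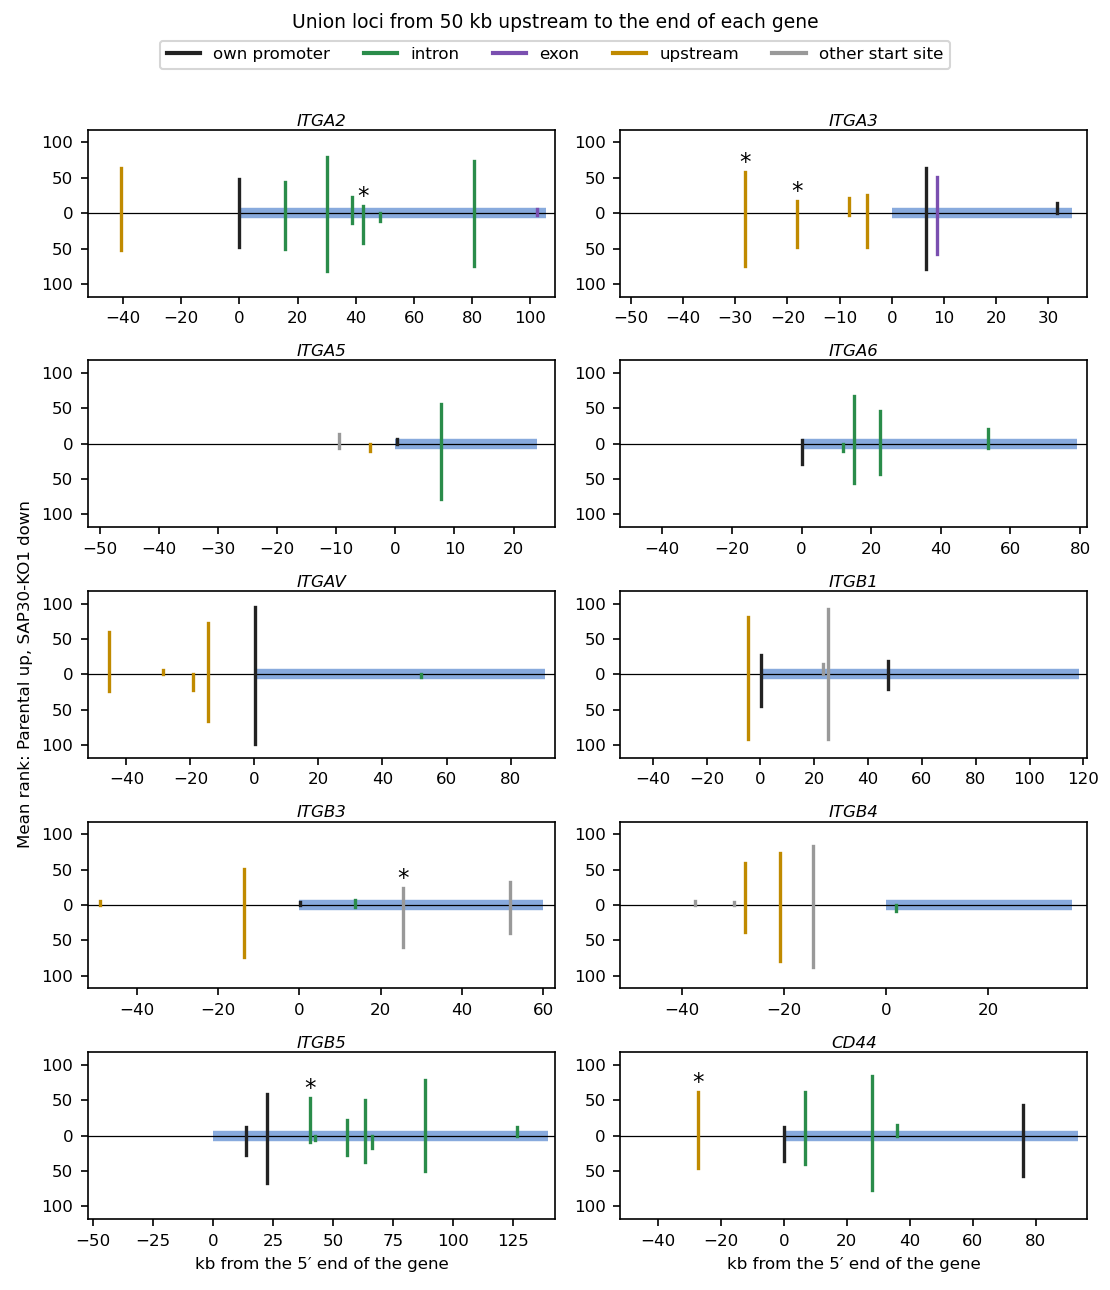
Maps of the 10 genes with their accessible loci, where the blue bar is the gene and the x axis is the distance in kb from its 5′ end. Lines extend up by the mean percentile rank of 3 Parental libraries and down by that of 3 SAP30-KO1 libraries, colors give the class of the locus, and * marks the 6 loci where the groups did not overlap, of which the one inside ITGB3 is the start site of another gene.

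In ITGA2, an intronic site 42.6 kb downstream of the 5′ end ranked at 0, 5.10 and 25.7 in Parental and at 64.6, 27.5 and 36.0 in SAP30-KO1 libraries. Every SAP30-KO1 library was higher, with a difference of 32.4, although the highest Parental and the lowest SAP30-KO1 rank lay close together. Upstream of ITGA3, a site at 18.1 kb ranked at 28.2, 24.8 and 0 in Parental and at 41.8, 46.6 and 55.2 in SAP30-KO1 libraries (difference 30.2). A stronger site 28.0 kb upstream of ITGA3 ranked at 58.7, 69.4 and 46.5 in Parental and at 74.0, 73.1 and 78.0 in SAP30-KO1 libraries (difference 16.8). The ITGA3 locus 6.5 kb downstream of the canonical start site had a difference of the same sign but overlapped.

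Lower values in SAP30-KO1 were found at ITGB5 and CD44. An intronic site 40.5 kb downstream of the 5′ end of ITGB5 ranked at 34.3, 45.6 and 81.1 in Parental and at 0, 25.4 and 0 in SAP30-KO1 libraries (difference -45.2). It had a summit in every Parental library and in SAP30-KO1 replicate 2 alone. A site 27.2 kb upstream of CD44 ranked at 80.7, 55.3 and 50.7 in Parental and at 41.4, 49.3 and 45.1 in SAP30-KO1 libraries (difference -16.9), with Parental replicate 3 just above SAP30-KO1 replicate 2. Neither site stayed apart on the deposited score itself. The CD44 site overlapped also at a q value of 0.0001 and with ranks taken within its chromosome arm. Shared loci of that arm had a median difference of -1.73. The site 18.1 kb upstream of ITGA3 kept its ranges apart in each setting that gave it a value. Windows of 100 bp and a region without upstream sequence gave it none. The ITGA2 site overlapped with equal list lengths, and the ITGA3 site at 28.0 kb with equal list lengths and with windows of 100 bp. Since SAP30-KO1 is a mixture of knockout cells, a site closed in part of the cells and a site less open in all of them cannot be told apart.

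To show the DNA at these sites, the 101 bases around the center of 3 sites without an AP-1 match are printed, plus strand of GRCh37: chr17:48115213-48115313 and chr17:48105248-48105348 upstream of ITGA3, and chr11:35133130-35133230 upstream of CD44. No letters are set in capitals, as the TEAD letters GGAATG, searched on both strands, were not found in the printed bases. The ITGA3 site at 28.0 kb holds GGGCGG once.
ITGA3 -18.1 kb: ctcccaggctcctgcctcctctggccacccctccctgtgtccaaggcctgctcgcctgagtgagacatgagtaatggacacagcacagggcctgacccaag
ITGA3 -28.0 kb: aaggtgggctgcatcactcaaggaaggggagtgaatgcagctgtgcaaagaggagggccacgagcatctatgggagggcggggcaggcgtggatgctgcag
CD44 -27.2 kb: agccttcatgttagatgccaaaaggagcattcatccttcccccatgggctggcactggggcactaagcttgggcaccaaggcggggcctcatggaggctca

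**Figure D4:**
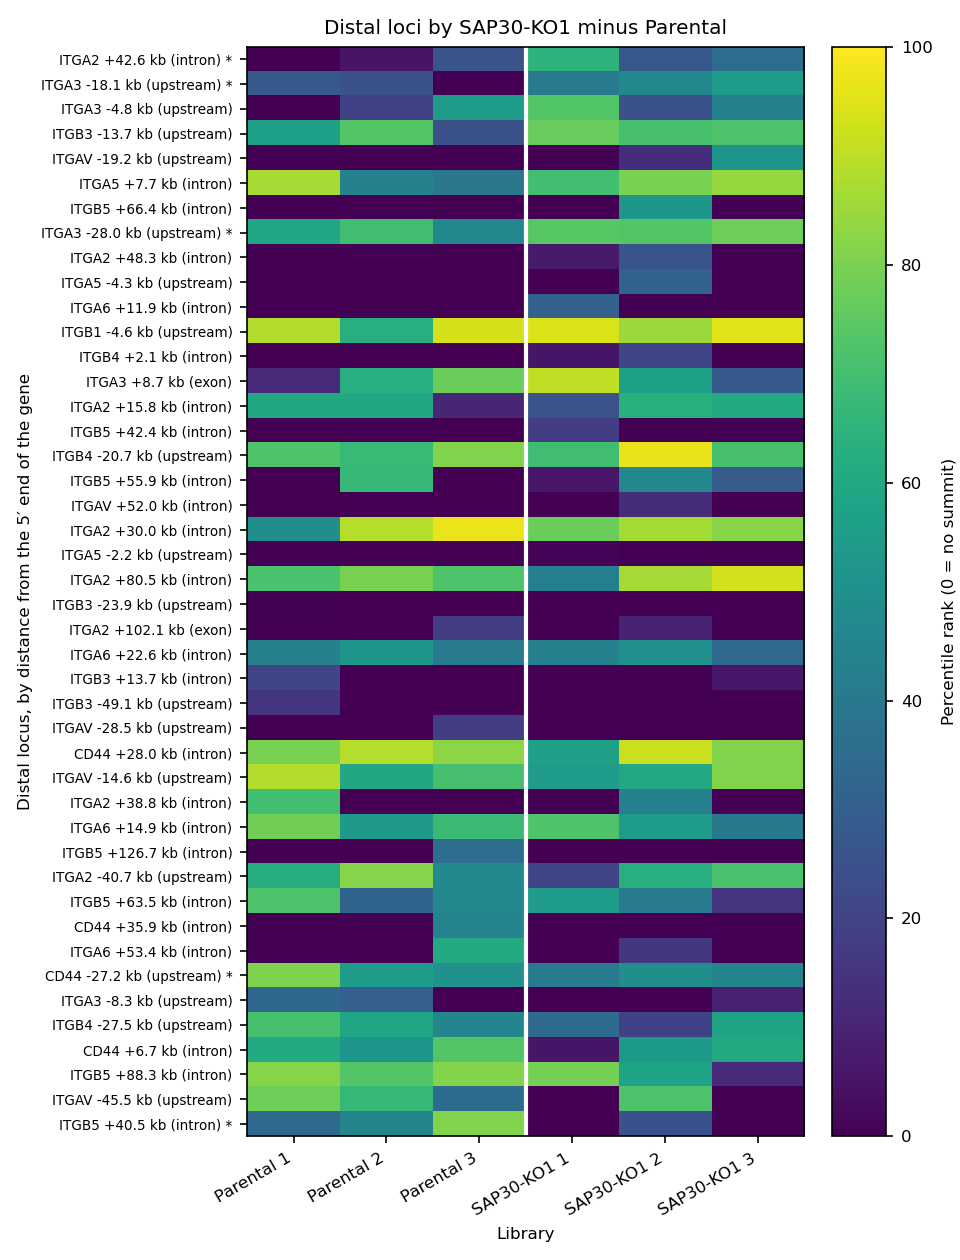
Percentile rank of all 44 distal sites in the 6 libraries, ordered from the largest positive to the largest negative difference. Rows are sites named by gene and distance in kb from its 5′ end, columns are libraries, dark cells at 0 have no summit, and * marks the 5 sites whose groups did not overlap, from 32.4 at ITGA2 to -45.2 at ITGB5.

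For all 10 genes, the strongest distal site had a summit in every library. In ITGA2 it lay in an intron 30 kb downstream of the 5′ end, with ranks of 49.98, 89.0 and 97.2 in Parental and 77.6, 86.4 and 82.2 in SAP30-KO1 libraries (difference 3.34, exact p = 1). ITGA2 had another such site at 80.5 kb, with ranks between 43.1 and 93.2. Both were above the ITGA2 promoter in 6-library mean (80.4 and 74.3 against 48.4). In CD44 it lay 28.0 kb into the gene, in an intron, with ranks of 79.9, 88.9 and 82.8 in Parental and 57.4, 92.2 and 81.1 in SAP30-KO1 libraries (difference -6.99, exact p = 0.8). SAP30-KO1 supplied both its lowest and its highest rank.

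Genes with little or no promoter signal also had strong distal sites. ITGA5 had an intronic site at 7.7 kb that ranked at 86.8, 43.9 and 39.8 in Parental and at 69.6, 79.9 and 84.1 in SAP30-KO1 libraries (difference 21.0, exact p = 0.4). Parental replicate 1 was the highest of all 6, and without it the groups were apart. The groups were then apart, in either direction, at 17% of all loci outside promoters. The ITGA5 site also lies inside GPR84-AS1, a gene annotated on the same stretch. ITGA6 had an intronic site at 14.9 kb with ranks of 78.4, 54.3 and 68.0 in Parental and 72.6, 55.3 and 40.3 in SAP30-KO1 libraries (difference -10.8, exact p = 0.5). Its rank exceeded that of the ITGA6 promoter in every library except SAP30-KO1 replicate 3. Upstream of ITGB3, a site at 13.7 kb ranked at 56.6, 73.4 and 24.6 in Parental and at 76.7, 71.1 and 71.9 in SAP30-KO1 libraries (difference 21.7, exact p = 0.3).

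For ITGB4, the strongest distal site lay 20.7 kb upstream, inside the neighboring gene SAP30BP, with ranks of 72.3, 67.2 and 80.9 in Parental and 69.3, 96.8 and 70.8 in SAP30-KO1 libraries (difference 5.50, exact p = 0.7). Within ITGB4 itself there was 1 locus, an intronic one at 2.1 kb, with a summit in SAP30-KO1 replicates 1 and 2 only, at ranks of 5.69 and 21.0. The 4.6 kb upstream site of ITGB1, which lies within the divergent noncoding gene ITGB1-DT and 52.2 kb from the canonical start site, ranked at 88.4, 63.2 and 93.4 in Parental and at 94.8, 84.8 and 95.2 in SAP30-KO1 libraries (difference 9.91, exact p = 0.5). ITGAV, with the strongest promoter, had its strongest distal site 14.6 kb upstream, with ranks of 88.7, 60.04 and 70.4 in Parental and 55.3, 60.4 and 80.9 in SAP30-KO1 libraries (difference -7.46, exact p = 0.6). Inside the ITGAV gene body the only locus beyond the promoter was a weak one, with a rank of 12.7 in SAP30-KO1 replicate 2 and 0 elsewhere.

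ITGB5, at 139 kb the longest of the 10 genes, had 7 intronic sites, the highest number, which was not scaled to gene length. Its strongest, at 88.3 kb, ranked at 81.9, 73.4 and 81.4 in Parental and at 79.0, 58.1 and 11.9 in SAP30-KO1 libraries (difference -29.2, exact p = 0.2). SAP30-KO1 replicate 1 overlapped the Parental range, and the other SAP30-KO1 libraries were below it. The difference was -10.3 without SAP30-KO1 replicate 3 and -43.9, with ranges apart, without SAP30-KO1 replicate 1. In the latter setting 18.2% of all loci outside promoters had ranges apart in either direction. A further site at 63.5 kb ranked at 72.0, 32.3 and 46.3 in Parental and at 55.3, 41.0 and 15.2 in SAP30-KO1 libraries (difference -13.1, exact p = 0.5). Of the 7 sites, 3 had a summit in a single library.

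The strongest intronic sites were then read for TGANTCA, called the AP-1 letters here, on both strands within 100 bases of the center. N stands for any base. The pattern thus covers the core site of FOS and JUN dimers, TGACTCA or TGAGTCA, and also looser matches. The letters were present at 12 of the 44 distal sites (27.3%), where 28.2% of 39508 distal loci of the same length held them. For the intronic sites the counts were 8 of 24 (33.3%) against 28.7%, and for distal sites with a summit in all 6 libraries 5 of 19 (26.3%) against 36.5%. The GGAATG letters were at 20.5% of the distal sites against 17.4%. The 4 intronic sites with TGANTCA among the strongest of a gene or those with ranks apart are printed with the match in capitals, plus strand of GRCh37: chr5:52327791-52327857 in ITGA2, chr12:54805331-54805448 in ITGA5, chr2:173306932-173307009 in ITGA6 and chr11:35188355-35188441 in CD44.
ITGA2 +42.6 kb: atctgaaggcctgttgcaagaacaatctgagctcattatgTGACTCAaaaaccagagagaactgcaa
ITGA5 +7.7 kb: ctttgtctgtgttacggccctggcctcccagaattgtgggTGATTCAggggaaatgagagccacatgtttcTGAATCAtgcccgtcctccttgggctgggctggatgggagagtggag
ITGA6 +14.9 kb: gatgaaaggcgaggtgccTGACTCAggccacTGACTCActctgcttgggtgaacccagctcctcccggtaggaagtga
CD44 +28.0 kb: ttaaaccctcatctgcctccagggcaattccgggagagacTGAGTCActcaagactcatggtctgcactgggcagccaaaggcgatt

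The ITGA5 and ITGA6 sites held 2 matches each. Those of ITGA5 read TGATTCA and TGAATCA, which are looser matches, and those of ITGA6 read TGACTCA. The 101 bases around the strongest intronic sites of ITGA2 (chr5:52315136-52315236) and ITGB5 (chr3:124531898-124531998), which had none, are printed for comparison. The former has a GC content of 30.7% and the latter of 65.3%. A match to these letters describes the sequence and does not show that a factor is bound.
ITGA2 +30 kb: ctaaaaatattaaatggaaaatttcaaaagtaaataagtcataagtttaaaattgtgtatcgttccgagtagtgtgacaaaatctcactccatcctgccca
ITGB5 +88.3 kb: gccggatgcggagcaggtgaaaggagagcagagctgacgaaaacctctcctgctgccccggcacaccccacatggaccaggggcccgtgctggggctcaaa

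The number of summits over the 10 regions together was 41, 44 and 42 in Parental and 46, 52 and 40 in SAP30-KO1 libraries. Scaled to 10000 summits of a library, the Parental mean was 12.7 ± 1.64 and the SAP30-KO1 mean 13.3 ± 1.94 (SD, n = 3), and the gap of 0.598 was smaller than the spread within either group. Gene by gene, the difference per 10000 summits ran from -0.182 at ITGB3 to 0.279 at ITGA6 (exact p = 0.9 and 0.2). The groups overlapped for all 10. No share over all genes was computed, so this count says nothing particular about these genes. ITGA2 had 6 to 9 summits per library, and ITGA5 had 1 to 3.

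Finally, 60 other adhesion genes were examined by their promoters. Of these, 35 had a promoter summit in at least 1 library, and 4 had ranks apart between the groups, 3 higher and 1 lower in SAP30-KO1, beside the background of 10.6%. The median difference of the 35 was 1.74. Each of the 4 had an exact p of 0.1, the smallest the test allows, and an adjusted p of 0.945. Of the 17 other integrin subunits, 4 had a promoter summit, and ITGB8, a partner of ITGAV, ranked at 79.3, 53.8 and 82.9 in Parental and at 89.3, 85.3 and 85.3 in SAP30-KO1 libraries. Of the 21 adaptors and kinases at integrin tails, 17 had a promoter summit. Among them, FERMT2, a kindlin that binds the beta tail, ranked higher in SAP30-KO1 (39.2, 55.3 and 54.9 against 68.9, 91.3 and 93.6).

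ILK, the integrin-linked pseudokinase, ranked lower in SAP30-KO1 (73.4, 77.5 and 68.7 in Parental against 30.1, 68.3 and 55.0). Of 4 hemidesmosome partners, 3 had a promoter summit. CD151, a tetraspanin that binds the laminin-binding integrins, ranked at 1.19, 0 and 24.8 in Parental and at 30.8, 74.95 and 41.9 in SAP30-KO1 libraries. No gene among the 13 ligands or the 5 genes of hyaluronan synthesis and breakdown had ranks apart, and promoter summits were found at 10 and 1 of them.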

How the data were processed

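ATAC-seq had been performed on 3 Parental and 3 SAP30-KO1 MDA-MB-231 libraries, grouped by their labels. According to the study's methods, the authors sequenced single-end reads, trimmed them, aligned them to hg19, removed duplicates and called peaks at a q value of 0.05. Per the submitters' processing notes, the tools included Trim Galore 0.4.5, Bowtie2 2.3.3.1, Picard and MACS2 2.1.0. Whether reads were moved to correct for the transposase offset is not given in the sources used here. The deposited values are −log10 q values, 1 per summit, from a separate list per library with no pooling seen. The lowest score of each list lay just above the −log10 of the threshold (1.30).

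Scores were ranked within each list, because separately called lists share no scale and hold no reads. Genes were matched by name in GENCODE release 44 (v44lift37, on GRCh37). Promoter summits lay within 1 kb of any start site of a gene. Other summits, extended by 250 bp on each side and merged, were placed from 50 kb upstream to the end of each gene, and loci within 1 kb of another gene's start site were kept apart. Promoters and single loci were tested by exact permutation (20 assignments, two-sided), adjusted by Benjamini-Hochberg over all promoters or loci. The script was tested on simulated shifts. The percentage of all promoters or loci with ranges apart is given as background.

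The 10 genes, all lists and all rules were chosen with earlier results of these data known. Named by rule were all 10 genes, distal sites with ranges apart (up to 5 a direction by size), the strongest distal site of each gene, and other adhesion genes with ranges apart. Other sites named, and the sequences without AP-1 letters, were chosen after their values were seen. Some sequences are not reported here. Of the marker lists, PECAM1 was not used here. Alternatives were q values of 0.01 and 0.0001, equal list lengths, each library left out in turn, a replicate block, log2(score + 1), ranks within a chromosome arm or among promoter summits, other windows, and limma 3.58.1 (R 4.3.3) on ranks. Python 3.11.15 with numpy 2.4.6, pandas 2.3.3 and scipy 1.17.1 was used.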

Additional observations from a re-analysis of the deposited data

How the results depend on the processing

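No p here could pass 0.05 by the exact test, so alternatives are described by counts and direction. Of the 9 genes with a promoter summit, 0 had ranges apart in every setting that kept all 6 libraries. With each library left out in turn the count ran from 0 to 4: it was 4 without Parental replicate 1 (ITGA3, ITGA6, ITGAV and CD44, all higher, background 20.2%), 2 without SAP30-KO1 replicate 1 (ITGB1 and CD44, background 20.9%) and 1 without SAP30-KO1 replicate 2 (ITGA6, background 19.4%). Fewer libraries make this rule easier to meet. Distal sites higher in SAP30-KO1, 3 as reported, were 1 with equal list lengths and 1 without upstream sequence, and ran from 4 to 6 with each library left out. The lower sites were 2 in the main setting, 1 at a q value of 0.0001, 0 on the log2(score + 1) scale, 1 with ranks within the arm and 1 without upstream sequence, and ran from 3 to 4 with each library left out, when 16.4% to 18.2% of all loci outside promoters had ranges apart against 10.1% with all 6. A region without upstream sequence holds fewer sites by construction, and for the other settings the cause was not tested.

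The ITGA2 promoter difference, -1.20 as reported, turned to 3.097 at a q value of 0.0001, 0.0932 on the log2(score + 1) scale, 3.56 with the mean over promoter summits and 0.249 with ranks among promoter summits. That of ITGA5 was 21.0 with a promoter of 2.5 kb, and that of ITGB1 -3.55 with the mean over summits. The site 30 kb into ITGA2 differed by -0.0185 and the median distal difference was 0.0155 on the log2(score + 1) scale, and the site 13.7 kb upstream of ITGB3 by -3.88 with windows of 100 bp on each side. With each library left out, the difference ran from -9.06 to 7.65 for the ITGA2 promoter, -5.26 to 13.3 for ITGB1, -11.0 to 12.6 at the ITGA2 site, -15.1 to 0.359 at the ITGAV site 14.6 kb upstream, -14.6 to 2.76 at the CD44 site 28.0 kb in and -3.40 to 10.3 at the ITGB4 site 20.7 kb upstream. It kept its sign but moved by over 1.5 times for the promoters of ITGAV (0.910 without Parental replicate 2, 4.46 without Parental replicate 1) and CD44 (10.8 without Parental replicate 2, 27.6 without SAP30-KO1 replicate 1), and at the sites of ITGA5 at 7.7 kb (36.0 without Parental replicate 1, 12.5 without Parental replicate 3), ITGA6 at 14.9 kb (-2.92 without SAP30-KO1 replicate 3), ITGB1 at 4.6 kb upstream (0.686 without Parental replicate 2), ITGB3 at 13.7 kb upstream (8.23 without Parental replicate 3), CD44 at 27.2 kb upstream (-7.72 without Parental replicate 1), ITGA2 at 42.6 kb (21.5 without SAP30-KO1 replicate 1) and ITGA3 at 28.0 kb upstream (11.01 without Parental replicate 3). The median promoter difference ran from 0.379 to 13.3 and that of summits per 10000 from -0.476 to 1.46. In single genes, the number of summits had ranges apart for 1 gene at a q value of 0.0001 and for 1 with 100 kb upstream. Canonical start sites alone, and libraries with a summit alone, were alternatives chosen after the data had been seen.

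The groups share replicate numbers, and the labels do not say whether libraries with the same number were handled together. Their deviations had correlations over loci of -0.0179, -0.0127 and -0.00320. Pairs with different numbers had correlations between -0.00334 and 0.0142. As both kinds of pair had such small values, these correlations cannot decide the question. The replicate block leaves each difference as it is by construction (23.3 for the ITGA6 promoter). Its exact sign-flip test over 3 pairs cannot go below p = 0.25, reached by the ITGA6 promoter and by 7 of the named distal sites. By its adjusted p, limma called none of the 9 promoters or 33 distal sites with or without the block.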

Other observations

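In the regions of the 10 genes, 8 loci lay at start sites of other genes. Of these, 1 had ranges apart between the groups. The 10.6% given for promoters counts protein-coding genes by their strongest summit, not merged loci. No share over all merged loci at start sites was computed. Inside ITGB3, a locus 25.5 kb downstream of the 5′ end, at the start site of the gene ENSG00000276790, ranked at 25.9, 0 and 46.9 in Parental and at 55.5, 57.9 and 64.2 in SAP30-KO1 libraries. All SAP30-KO1 libraries were higher, with a difference of 34.96 (exact permutation test, two-sided, p = 0.1, adjusted over all loci p = 0.988). Another locus inside ITGB3, at the start site of EFCAB13-DT, had a summit in all 6 libraries with ranks between 29.3 and 55.1. Between the annotated start sites of ITGB1, the start site of its divergent transcript ITGB1-DT ranked between 83.2 and 97.2, above both ITGB1 start sites in every library. A start site of SAP30BP, a gene just upstream of ITGB4, ranked between 82.1 and 92.8.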
